A study of Mus musculus with 8 samples.

Results

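Transcripts of 9 complement genes were followed by bulk RNA-seq in mouse brown adipose tissue, BAT: C1qa, C1qb, C1qc, C2, C3, C4b, Cfb, Cfd and Serping1. The genes were chosen by name, as complement components and 1 complement inhibitor known from adipocytes, macrophages and stroma, and are 9 of the 31053 genes in the count table. All 9 had counts in every library and all received an adjusted p-value. The libraries come from C57BL6/J mice, 4 labelled WT and 4 labelled Cd36KO, with an age label of 8 weeks in both groups. The study's methods describe a cross of Cd36 flox/flox mice with Csf1r-Cre, which deletes Cd36 in myeloid cells, and its text says that the BAT profile is of this cross, while naming a germline knockout as well. The labels give only Cd36KO, the methods state a later age for the myeloid cross, and it is not stated whether the WT mice were littermates or carried the floxed allele or Cre. For 1 Cd36KO library the column carries no number, and it is named Cd36KO unnumbered here. A figure legend of the study gives 4 mice in each group, but the labels do not tie libraries to single animals, so p-values measure the spread between these libraries.

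Complement is a cascade of plasma proteins that coats targets, attracts leukocytes and lyses membranes. In the classical pathway, C1q, a bundle of A, B and C chains made mostly by macrophages, binds its target and its attached proteases cleave C4 and C2, whose fragments form an enzyme that splits C3. In the alternative pathway, factor D, also named adipsin and encoded by Cfd, cleaves factor B (Cfb) once factor B is bound to a C3 fragment, and so completes a second enzyme that splits C3. Adipsin is secreted by adipocytes, and fat is its main source in mice. Serping1 encodes the C1 inhibitor, which blocks the C1 proteases.

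In GRCm38 all 9 are protein-coding genes. C1qb (chromosome 4, 136880129 to 136886187), C1qc (136889804 to 136893065) and C1qa (136895917 to 136898803) lie side by side on the minus strand, with 3616 and 2851 bases between them. C4b (chromosome 17, 34728380 to 34743882), Cfb (34856374 to 34862518) and C2 (34862604 to 34898265) are on the minus strand of the major histocompatibility region, where Cfb and C2 are 85 bases apart. C3 is elsewhere on chromosome 17 (57203970 to 57228136), Cfd on chromosome 10 (79890853 to 79892655) and Serping1 on chromosome 2 (84765387 to 84775444). The Cfb and C2 values carry a counting limit. A read-through transcript, Gm20547, covers most of Cfb and part of C2, and only 20.5% of Cfb exon bases and 53.1% of C2 exon bases belong to no other annotated gene. Gm20547 itself had 0 counts in all libraries, and how shared reads were assigned is not given in the sources used here. For the other 7 genes 100% of exon bases were free of other genes.

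The 250 bases before the annotated start are shown for C1qb, as a gene of macrophage C1q, and for C3 and Cfd, the most abundant of the 9. They are from RefSeq (GRCm38.p6), at chr4:136886201-136886450 (minus strand), chr17:57228137-57228386 (minus strand) and chr10:79890603-79890852 (plus strand), and run 5′ to 3′. Capitals mark matches, on either strand, to 4 motifs of factors known at complement genes in general: GAGGAA (PU.1 core), TTNNGNAA (C/EBP), TTCNNNGAA (STAT) and the NF-kB consensus.
C1qb: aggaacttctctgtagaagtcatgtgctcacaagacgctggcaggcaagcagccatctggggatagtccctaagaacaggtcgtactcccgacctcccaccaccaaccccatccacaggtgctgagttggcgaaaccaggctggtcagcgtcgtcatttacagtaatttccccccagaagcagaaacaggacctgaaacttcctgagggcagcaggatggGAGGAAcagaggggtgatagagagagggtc
C3: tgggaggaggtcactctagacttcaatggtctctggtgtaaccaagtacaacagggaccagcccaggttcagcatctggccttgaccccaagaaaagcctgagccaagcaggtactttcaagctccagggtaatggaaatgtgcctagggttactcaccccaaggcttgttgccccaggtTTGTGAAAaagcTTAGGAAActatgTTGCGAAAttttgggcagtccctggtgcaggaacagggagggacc
Cfd: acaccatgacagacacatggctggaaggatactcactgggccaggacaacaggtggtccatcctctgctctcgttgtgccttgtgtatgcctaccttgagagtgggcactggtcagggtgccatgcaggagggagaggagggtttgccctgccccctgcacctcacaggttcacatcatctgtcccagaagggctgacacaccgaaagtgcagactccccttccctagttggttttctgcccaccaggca
The C3 window held TTNNGNAA at 3 places that do not overlap one another, from -70 to -63, -58 to -51 and -45 to -38 relative to the start, and the last of these matched on both strands. At least 1 match was present in 36.8% of 32534 windows of the same length, and 3 or more in 2.62%. The C1qb window held GAGGAA from -30 to -25, a motif found in 23.4% of windows. The Cfd window held none of the 4 motifs, of which TTCNNNGAA was found in 7.04% and the NF-kB consensus in 4.11% of windows. A match describes letters in the window and shows no binding.

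Library totals ranged from 2679785 to 4097953 counts, with 13368 to 14698 genes detected, and 23.4% to 32.1% of counts were mitochondrial. The labels name brown adipose tissue and also stromal vascular fraction, yet adipocyte markers were abundant in every library, at 5171 to 11391 CPM (counts scaled to library size) summed over 6 genes. The methods state that all mice were male, but Xist had 772 to 1588 counts in each library and 4 Y-linked genes held 3 counts over the 8 libraries. Cd36 itself was lower in each Cd36KO library (1926 to 2384 normalized counts) than in each WT library (2412 to 3505), a log2 fold change of -0.48 ± 0.16 (SE; DESeq2 adjusted p = 0.0602, edgeR adjusted p = 0.191, exact permutation p = 0.0286). The library WT 1 stood apart from the other WT libraries, with muscle markers at 19175 CPM against 294 to 3721 and white depot markers at 311 CPM against 1562 to 1807, the latter within the Cd36KO range of 237 to 358. Results that rest on WT 1 are given with and without it.

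Over the 8 libraries no complement gene of the 9 passed the threshold, an adjusted p under 0.05, in DESeq2 or in edgeR. DESeq2 called 2.95% of all genes with an adjusted p and edgeR 0.143%. Adjusted p-values of the 9 ranged from 0.185 to 0.931 in DESeq2. At an unadjusted p under 0.05, 2 of the 9 (Cfb and C2, both lower in Cd36KO) were below the level in DESeq2, against 15.6% of all genes with an adjusted p, and 2 in edgeR, against 16.1%. The log2 fold change was negative for 6 genes and positive for 3, against 50.8% negative among all genes tested, with a median of -0.15 beside -0.0088 over all genes tested. No gene of the 9 had groups that did not overlap, which 8.76% of all genes had. Each library holds RNA of mixed cells, so fewer cells of a type and less RNA per cell cannot be told apart.

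**Figure D1:**
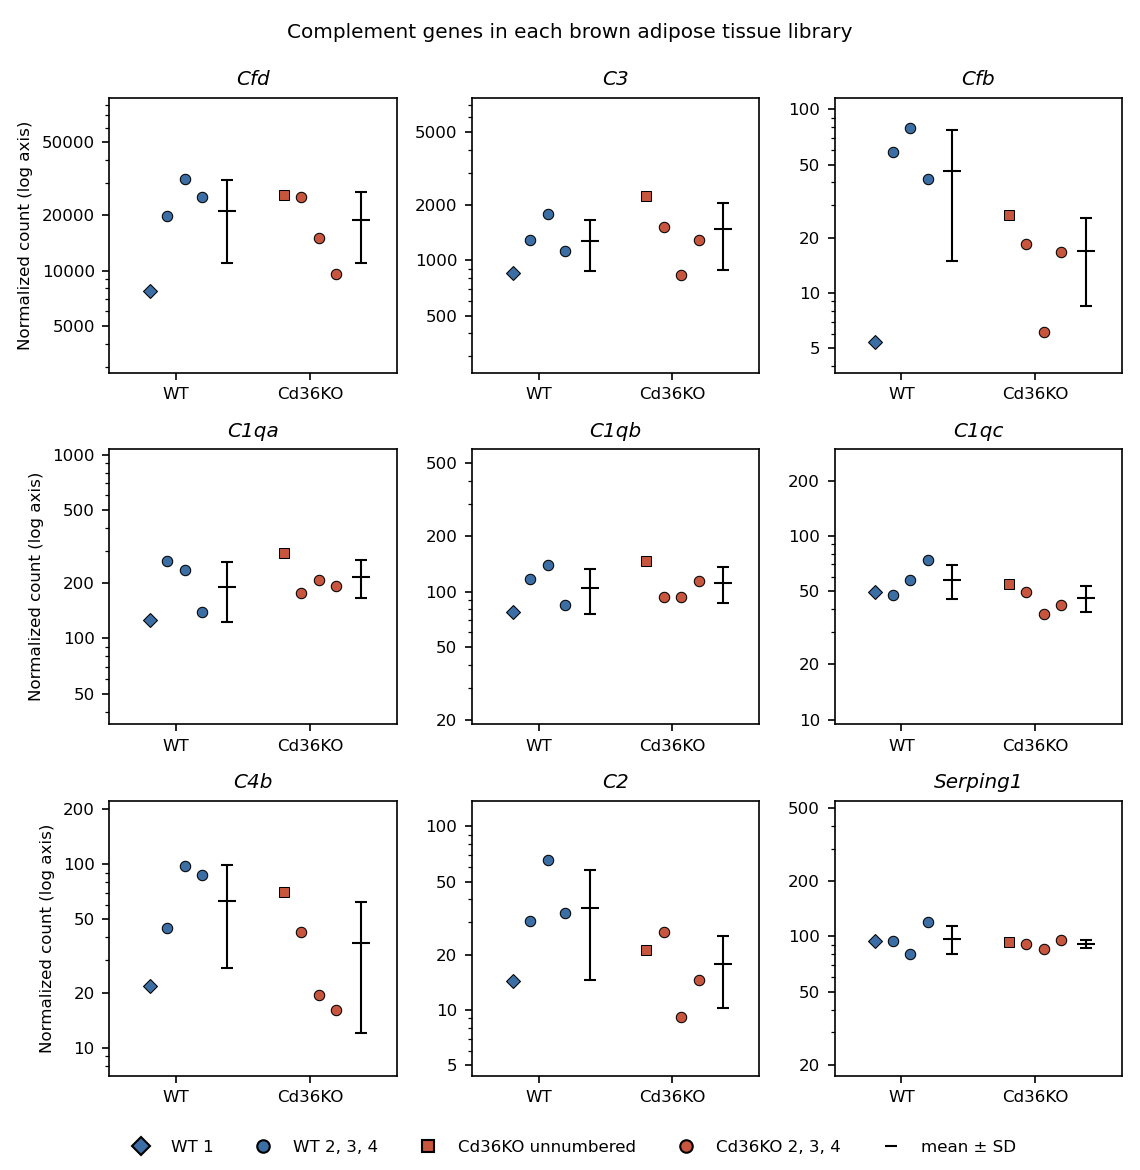
Normalized counts (counts divided by the DESeq2 size factor, logarithmic vertical axes, each spanning the same fold range) of the 9 complement genes in the 4 WT and 4 Cd36KO libraries, with mean ± SD beside the points. WT 1 (diamonds) is the lowest WT library for Cfd, C3, Cfb, C1qa, C1qb, C4b and C2, the groups overlap for all 9 genes, and Serping1 has the narrowest spread.

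The adipocyte gene Cfd was by far the most abundant of the 9. Its normalized count was 7736 in WT 1, 19763 in WT 2, 31388 in WT 3 and 25086 in WT 4. In Cd36KO it was 25765 in the unnumbered library, 25019 in replicate 2, 15113 in replicate 3 and 9626 in replicate 4. The groups covered nearly the same range, with 1 low library in WT and a spread from low to high in Cd36KO. The means were 20993 ± 10035 in WT and 18881 ± 7851 in Cd36KO (SD, n = 4), a log2 fold change of -0.15 ± 0.51 (SE). Its 95% interval ran from -1.15 to 0.84, so differences in either direction inside those bounds stayed compatible with the values (DESeq2 adjusted p = 0.931, exact permutation p = 0.857). Cfd made up 0.283% to 0.983% of all counts of a library and 84.3% to 93.6% of the counts of the 9 genes. Among nuclear genes it ranked 3 to 17 in abundance, and the low ranks, 16 and 17, were those of WT 1 and Cd36KO replicate 4.

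C3, the protein that both pathways split, came next. It was at 854, 1288, 1798 and 1132 normalized counts in WT 1 to WT 4, and at 2248, 1513, 837 and 1296 in Cd36KO unnumbered, 2, 3 and 4. The highest and the lowest library were both Cd36KO. The means of 1268 ± 397 in WT and 1474 ± 589 in Cd36KO (SD, n = 4) gave a log2 fold change of 0.22 ± 0.28 (SE), with a DESeq2 adjusted p of 0.788. Without the unnumbered Cd36KO library the value was -0.06, so its sign rested on that library.

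Cfb, which supplies the cutting subunit of the alternative pathway enzyme, had the largest estimated difference of the 9. Its normalized count was 5.42, 58.6, 78.8 and 41.5 in WT 1 to WT 4. In Cd36KO it was 26.7, 18.4, 6.14 and 16.8 in the unnumbered library and replicates 2, 3 and 4. All 4 Cd36KO libraries were below WT 2, WT 3 and WT 4, while WT 1 was below every Cd36KO library. The WT 1 value rests on 6 reads (95% exact Poisson interval 2.20 to 13.1, counting error only), and that of WT 2 on 69 (53.7 to 87.3). The means were 46.1 ± 31.1 in WT and 17.0 ± 8.46 in Cd36KO (SD, n = 4), and the log2 fold change of -1.44 ± 0.60 (SE) missed the threshold (DESeq2 adjusted p = 0.185, edgeR adjusted p = 0.252, exact permutation p = 0.314).

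The genes of the C1q chains, which mark tissue macrophages, showed small differences between groups. C1qa was at 125, 262, 236 and 139 normalized counts in WT 1 to WT 4, and at 292, 176, 208 and 194 in Cd36KO unnumbered, 2, 3 and 4. C1qb was at 77.6, 117, 139 and 84.1 in WT and at 146, 93.2, 93.1 and 114 in Cd36KO, so that WT 1 and WT 4 were the lower WT libraries for both genes. C1qc was flatter, with 49.6, 47.6, 57.6 and 74.2 in WT and 54.6, 49.5, 37.8 and 41.9 in Cd36KO. For C1qa and C1qb the unnumbered Cd36KO library was the highest of the 8, whereas for C1qc it was WT 4. The log2 fold changes were 0.19 ± 0.27 for C1qa, 0.10 ± 0.26 for C1qb and -0.32 ± 0.27 for C1qc (SE), with DESeq2 adjusted p-values of 0.813, 0.909 and 0.632. The 95% interval was -0.34 to 0.72 for C1qa and -0.86 to 0.22 for C1qc.

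C1q was also set against other macrophage transcripts. The sum of the 3 C1q genes was 253 to 433 normalized counts in WT and 319 to 492 in Cd36KO. Divided by the sum of 14 macrophage markers, it was 0.468 ± 0.034 in WT (range 0.433 to 0.516) and 0.564 ± 0.058 in Cd36KO (range 0.497 to 0.613; SD, n = 4). The ranges overlapped, and only WT 2 reached into the Cd36KO range. Within the marker list, Cd163, a scavenger receptor of resident macrophages, was lower in Cd36KO (log2 fold change -1.25, DESeq2 adjusted p = 0.0183). Cd163 was the only gene of the 14 called by DESeq2, which called 2.95% of all genes with an adjusted p. It was not called by edgeR (adjusted p = 0.110) or limma, nor by DESeq2 without WT 2, WT 3, Cd36KO unnumbered, Cd36KO 3 or Cd36KO 4. Of the other markers in the list, 3 were at an unadjusted DESeq2 p under 0.05, as were 15.6% of all genes with an adjusted p. These 3, named after their values were seen, were Mertk at -0.72 and Mrc1 at -0.85, both receptors of resident macrophages, and Tyrobp, an adaptor of myeloid receptors, at 0.75 (log2 fold changes, DESeq2 adjusted p-values of 0.158, 0.191 and 0.268). Every Cd36KO value was below every WT value for Mertk and above for Tyrobp, against 8.76% of all genes with groups apart in either direction. DESeq2 called Mertk without WT 1 (adjusted p = 0.0454) and without WT 4 (0.0490), and Mrc1 without WT 4 (0.0172). The edgeR test called neither there (adjusted p = 0.0828, 0.123 and 0.0921). Other left-out libraries weakened both: Mertk was at -0.38 without WT 3 (DESeq2 adjusted p = 0.605) and Mrc1 at -0.63 without WT 2 (DESeq2 adjusted p = 0.600). Csf1r, the receptor that macrophages need to survive, was at 55.1 to 166 normalized counts in WT and 89.8 to 166 in Cd36KO. The part of these markers in the C1q values was not tested.

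The classical pathway genes C4b and C2 had negative estimates that did not pass. C4b was at 21.7, 45.0, 97.6 and 87.0 normalized counts in WT 1 to WT 4 and at 70.2, 42.6, 19.4 and 16.0 in Cd36KO unnumbered, 2, 3 and 4. C2, whose protein joins C4 in the classical C3-splitting enzyme, was at 14.4, 30.6, 65.9 and 33.6 in WT and at 21.2, 26.5, 9.21 and 14.5 in Cd36KO. Both genes were lowest among WT libraries in WT 1, and the groups overlapped. The log2 fold change was -0.77 ± 0.50 for C4b and -1.02 ± 0.48 for C2 (SE), with DESeq2 adjusted p-values of 0.491 and 0.270 and exact permutation p-values of 0.257 and 0.171. C4b has a close paralog, C4a. No C4a counts entered the values here, so C4b counts are less certain where their sequences match, and whether they hold reads of C4a was not tested.

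Serping1, the inhibitor, was the steadiest of the 9. Its normalized count was 93.9, 94.3, 79.98 and 119.7 in WT 1 to WT 4 and 93.6, 90.9, 84.9 and 95.3 in Cd36KO unnumbered, 2, 3 and 4. The Cd36KO values lay inside the WT range, and the highest library was 1.496-fold the lowest, against 14.5-fold for Cfb, 7.15-fold for C2, 6.10-fold for C4b and 4.06-fold for Cfd. The log2 fold change of -0.09 ± 0.21 (SE) had a 95% interval of -0.50 to 0.33 (DESeq2 adjusted p = 0.897).

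Leaving out WT 1 brought Cfb past the threshold. Its log2 fold change was then -1.81 ± 0.43 (SE) in DESeq2 (adjusted p = 0.00167) and -1.82 in edgeR (adjusted p = 0.0205). It was the only gene of the 9 called, where DESeq2 called 2.29% and edgeR 1.7% of all genes lower. C2 reached -1.29 ± 0.45 (DESeq2 adjusted p = 0.0893, edgeR adjusted p = 0.115) and C4b -1.06 ± 0.44 (DESeq2 adjusted p = 0.208). For Cfb and C2 all 4 Cd36KO values then lay below the other 3 WT values, as for 7.59% of all genes. In a fit of the 6 numbered libraries, without WT 1 and the unnumbered Cd36KO library, Cfb and C4b were called lower by DESeq2, as were 1.87% of all genes. With the replicate number as a block in that fit, C4b was not called (DESeq2 adjusted p = 0.0724). Cfd moved, without WT 1 alone, to -0.43 ± 0.27 (DESeq2 adjusted p = 0.549). The 3 remaining WT libraries are also those with high white depot markers, and the part of that tissue difference in the Cfb value was not tested.

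**Figure D2:**
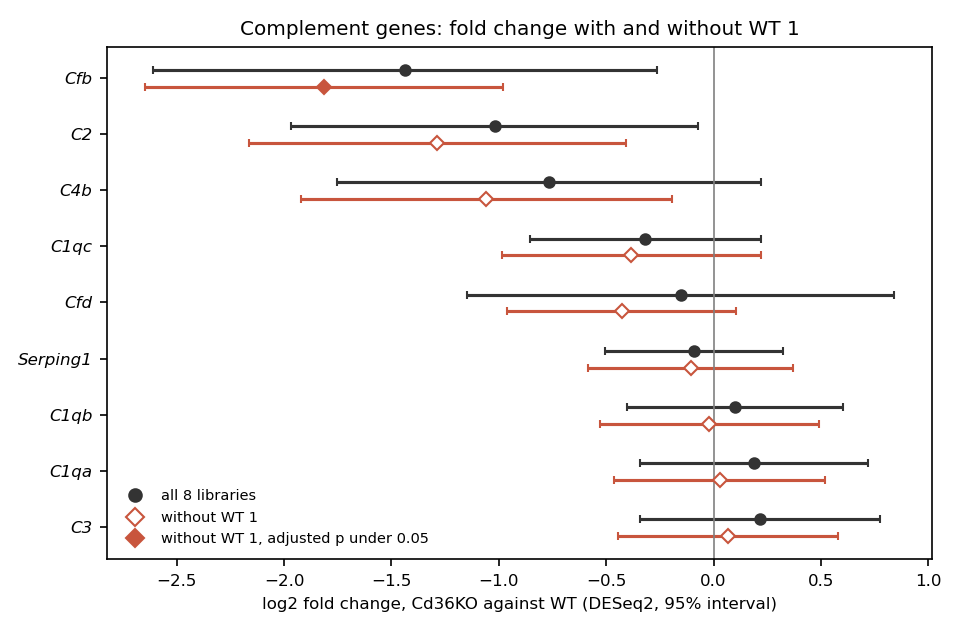
DESeq2 log2 fold changes of the 9 complement genes in Cd36KO against WT, with 95% intervals, over all 8 libraries (circles) and without WT 1 (diamonds, filled where the adjusted p is under 0.05). Only Cfb without WT 1, at -1.81, is past the threshold.

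Levels were compared between genes per kilobase of merged exons, as normalized counts over 8 libraries. The means were 21624 for Cfd, 267 for C3, 196 for C1qa, 99.3 for C1qb, 40.5 for Serping1, 26.7 for C1qc, 11.2 for Cfb, 8.77 for C4b and 6.97 for C2. The range of Cfd (8391 to 34044) lay above that of C3 (163 to 437), and that of C1qb (71.4 to 134) lay above that of Serping1 (34.4 to 51.5). All other neighbours in this order had overlapping ranges. Within libraries, the order of the means held in 8 of 8 for C1qa over C1qb, Serping1 over C1qc and C1qc over Cfb, in 7 for C4b over C2, in 6 for C3 over C1qa and in 3 for Cfb over C4b. By count alone the order was the same except that C4b stood above Cfb. The sources used here do not say whether reads cover whole transcripts or one end, and for reads of one end the division by length would not apply.

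After the group mean was taken off on the log2 scale, C2, C3, C4b, Cfb and Cfd deviated together over the 8 libraries. Their 10 pairs had a Pearson's r of 0.70 to 0.94 and a Spearman's rho of 0.76 to 0.95, with r from 0.58 to 0.95 without the 2 libraries farthest from the median of the first gene. C4b and Cfd were the closest of these (r = 0.94, rho = 0.95, and r = 0.95 without the 2 libraries farthest from the median of C4b). Pairs with C1q genes reached into that range as well, such as C1qb with C3 (r = 0.83, rho = 0.83, and r = 0.52 without the 2 farthest), C1qc with C4b (r = 0.80, rho = 0.69, and r = 0.72) and C1qb with Cfb (r = 0.76, rho = 0.81, and r = 0.69). C1qa and C1qb deviated together (r = 0.90, rho = 0.83, and r = 0.90 without the 2 farthest). C1qc did not follow C1qa (r = -0.09, rho = -0.21), although its reads were few, 37 to 75 a library. Serping1 did not follow Cfd (r = -0.04, rho = -0.07). These are descriptions from 36 pairs, and the points share library, depth and tissue make-up.

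Among 5527 genes with a mean of at least 50 normalized counts, those with deviations most like Cfd were Apol6 (r = 0.99), Chst1 (0.97), Arap2 (0.96), B2m (0.96), which encodes the light chain of class I histocompatibility molecules, and Slc7a10 (0.96), an amino acid transporter gene of white adipocytes. For C3 they were Atl3 (0.97), Lmna (0.96), which encodes nuclear lamins, Rexo1 (0.96), Mpv17l2 (0.95) and Tep1 (0.94). For the sum of the C1q genes, among 5525 genes, they were Trappc9 (0.99), Cul7 (0.97), Sqstm1 (0.97), the gene of an autophagy receptor, Fkbp8 (0.96) and Tigd2 (0.95). None of these 15 genes had a DESeq2 adjusted p under 0.05, the lowest being 0.0757 for Apol6. With 8 libraries and so many genes searched, values of this size are a ranking only.

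Of 46 other complement genes, 45 were in the table, 32 had any count and 13 had an adjusted p. None of the 13 was called by DESeq2 or edgeR, against 2.95% and 0.143% of all genes, with 2 (Itgam and Cr1l) at an unadjusted p under 0.05 in each, against 15.6% and 16.1%. Their median log2 fold change was 0.02. The C1 proteases were split, with C1ra at 0.28 ± 0.30 and C1s1 at -0.43 ± 0.35 (SE). Properdin, encoded by Cfp, which stabilises the alternative pathway enzyme, was at -0.28 ± 0.34, and clusterin (Clu), which binds terminal complexes, was at 0.12 ± 0.27.

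Among the membrane regulators, Cr1l, which encodes the rodent inhibitor Crry, was at 149, 166, 165 and 132 normalized counts in WT 1 to WT 4 and at 194, 200.2, 225 and 182 in Cd36KO unnumbered, 2, 3 and 4. Every Cd36KO value was above every WT value, as for 4.83% of all genes with an adjusted p. The log2 fold change of 0.39 ± 0.17 (SE) did not pass (DESeq2 adjusted p = 0.233, edgeR adjusted p = 0.267, exact permutation p = 0.0286, the smallest that 4 against 4 allows). Cd59a, the inhibitor of pore formation, was at -0.14 ± 0.18 and its neighbour paralog Cd59b at 0.15 ± 0.44, and counts of this pair may be shared between copies.

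Of the receptors, Itgam, whose product is a chain of complement receptor 3 on myeloid cells, was at 20.8, 42.5, 115 and 21.8 normalized counts in WT 1 to WT 4 and at 13.4, 26.5, 20.5 and 9.91 in Cd36KO. The highest value was WT 3, and the groups overlapped. The log2 fold change of -1.51 ± 0.54 (SE) did not pass over 8 libraries (DESeq2 adjusted p = 0.101) and did without WT 1 (-1.77, DESeq2 adjusted p = 0.0207), though not in edgeR (-1.78, adjusted p = 0.0825). Cd93 was at 0.42 ± 0.29, and C1qbp at -0.0037 ± 0.25. Fcna, the macrophage ficolin of the lectin pathway, was chosen after its values were seen: its counts were 5, 11, 10 and 24 in WT and 4, 0, 5 and 3 in Cd36KO, and independent filtering left it without an adjusted p. Itgax, a chain of complement receptor 4, was chosen in the same way and had counts of 1, 5, 0 and 0 in WT and 9, 8, 6 and 6 in Cd36KO, also without an adjusted p. The groups overlapped for Fcna and did not for Itgax, as for 8.76% of all genes with an adjusted p. Masp2, a protease of the lectin pathway named after its values were seen, had counts of 1, 3, 4 and 1 in WT and 0, 0, 0 and 1 in Cd36KO, with normalized values that did not overlap, and no adjusted p. The 9 lectin pathway genes, none with an adjusted p and 4 without counts, summed to 5.23 to 8.40 CPM in WT and 1.49 to 2.96 in Cd36KO. This gap rested on Fcna, the gene of the 9 with the highest mean, and without it the summed ranges overlapped. Not all liver-made components were detected. Mbl1, Mbl2, C8a, C8b, C9, Cfi and C4bp had no counts in any library, which at these totals does not show absence.

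**Figure D3:**
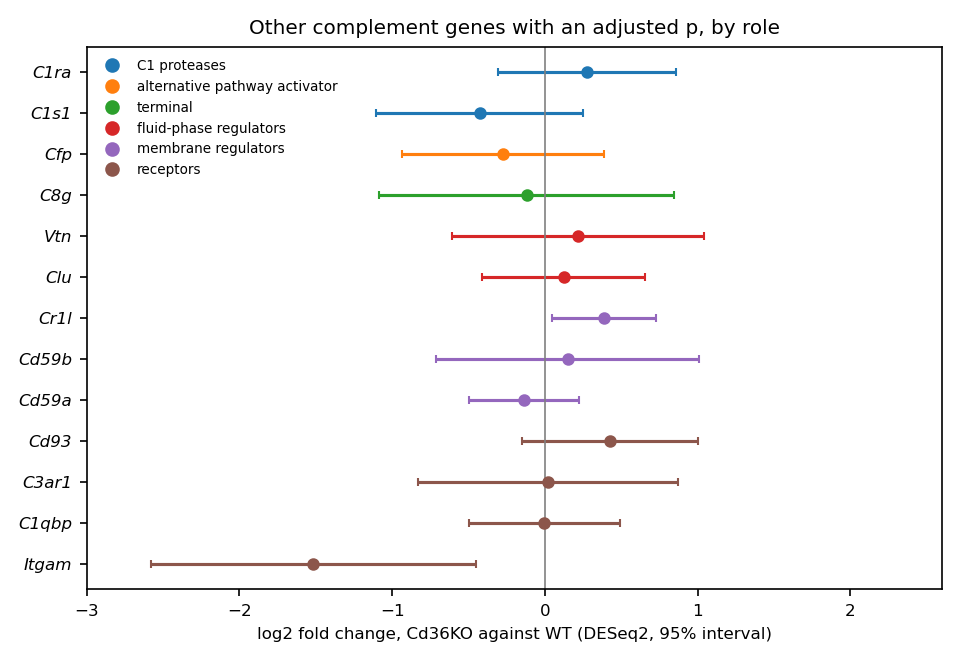
DESeq2 log2 fold changes in Cd36KO against WT, with 95% intervals, of the 13 other complement genes that had an adjusted p, coloured by role. Itgam at -1.51 and Cr1l at 0.39 are the genes whose intervals exclude 0, and no gene passed after adjustment.

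Genes related by structure or by inducer had no call either. Of 22 genes with a C1q-like domain outside complement, 7 had an adjusted p and none was called, with 0 at an unadjusted p under 0.05. The adipokine gene Adipoq, the most abundant of them, was at 2458 normalized counts in WT 1, 5212 to 6294 in the other WT libraries and 3904 to 4400 in Cd36KO. Its log2 fold change was -0.27 over 8 libraries (DESeq2 adjusted p = 0.657) and -0.49 without WT 1 (DESeq2 adjusted p = 0.0194), where edgeR did not call it (-0.50, adjusted p = 0.131). Of 20 interferon and acute-phase genes, 14 had an adjusted p and none was called, with 4 at an unadjusted p under 0.05 in DESeq2. These 4, named after their values were seen, had log2 fold changes of 0.77 (Stat2), 0.64 (Irf9), 0.49 (Gbp7) and -0.38 (Nfkbia), with DESeq2 adjusted p-values of 0.170 to 0.242, and the groups did not overlap for 3 of them, Stat2, Irf9 and Nfkbia, beside 8.76% of all genes with such groups and 15.6% at that unadjusted level. Hp, which encodes haptoglobin, followed the pattern of low WT 1, at 578 normalized counts where WT 2 to WT 4 had 1179 to 1622 and Cd36KO had 876 to 1319.

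Brown adipocyte, white depot and stromal progenitor markers held calls in DESeq2, which called 2.95% of all genes, and fewer of their genes were called by edgeR and none by limma. Summed brown adipocyte markers were 5390 to 7108 CPM in WT and 10139 to 11785 in Cd36KO, with Ucp1, Cidea, Cox7a1 and Cox8b higher among 7 genes with an adjusted p. The edgeR test called 0 of these over 8 libraries and 2 without WT 1, and DESeq2 called 1 without WT 2, WT 3 or the unnumbered Cd36KO library and 2 without Cd36KO 3. Of 8 white depot markers with an adjusted p, 6 were lower (Lep, Hoxc8, Nnat, Sncg, Npr3 and Aldh1a1), and edgeR called 4 over 8 libraries, 8 without WT 1 and 0 without any other single library. Stromal progenitor markers, summed, were 1998 to 2692 CPM in WT and 1147 to 1495 in Cd36KO, with Dpt, Col1a2 and Gsn lower among 11, of which edgeR called 1, Dpt (adjusted p = 0.0394). The edgeR count was 3 without WT 1, 1 without WT 4 and 0 without any other single library. Gsn was the most abundant gene of this list, at 2129 to 5754 normalized counts in WT and 1473 to 2141 in Cd36KO. The gap between the summed stromal ranges rested on Gsn, and without it they overlapped. The sum of 6 adipocyte markers was 7869 to 11391 CPM in WT and 5171 to 7427 in Cd36KO, with none called over 8 libraries. This gap rested on Fabp4, a fatty acid carrier and the only 1 of the 6 whose groups did not overlap: without it the sums were 2740 to 5110 CPM in WT and 3330 to 3537 in Cd36KO. DESeq2 called 3 of the 6 without WT 1 and 1 without Cd36KO 2, and edgeR 0 in both cases. Muscle markers, summed, were 294 to 19175 CPM in WT and 110 to 2251 in Cd36KO, which overlap. Their median log2 fold change was -3.11, and none of the 10 was called by DESeq2 or edgeR, with 7 at an unadjusted p under 0.05 in DESeq2 and 8 in edgeR, against 15.6% and 16.1% of all genes. Without WT 1 these were 0 and 2. DESeq2 called 4 muscle markers without the unnumbered Cd36KO library, where edgeR called 0, and in the 6 numbered libraries 2, or 8 with the replicate block. Macrophage sums overlapped between the groups, at 187 to 295 and 175 to 237 CPM. The part of these differences in the values of Cfb, C2, C4b and Cfd was not tested. The hepatocyte list stayed at 0 to 3.47 CPM in every library.

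**Figure D4:**
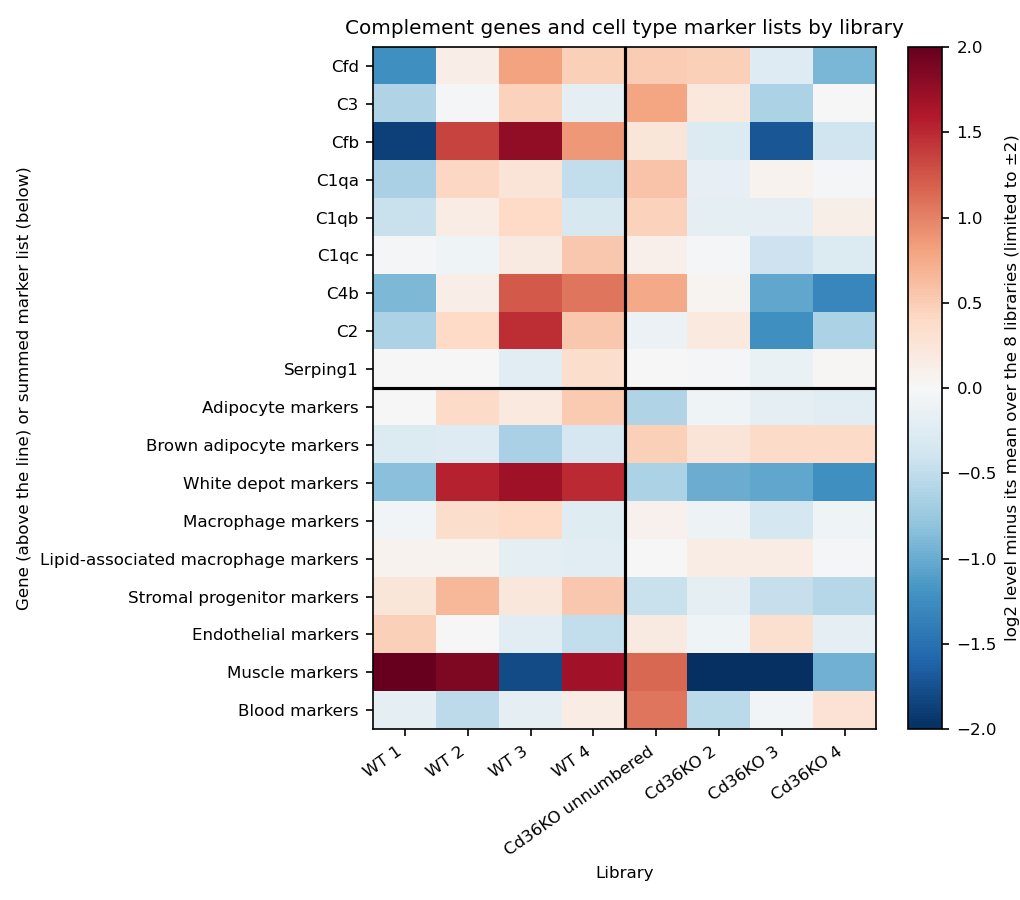
Level of each complement gene and of each summed marker list in the 8 libraries, as log2 level minus its mean over the libraries (colours limited to ±2). White depot markers are low in WT 1 (311 CPM) as in the Cd36KO libraries (237 to 358 CPM), and Cfd, Cfb, C4b and C2 are below their own mean in WT 1 and in Cd36KO replicates 3 and 4.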

How the data were processed

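Bulk RNA-seq counts of BAT from 4 WT and 4 Cd36KO libraries were analysed, and groups came from the sample labels. The methods describe trimming of reads by bbduk, alignment by STAR (mm10) and counting by HTSeq-count, whereas the submitters' processing notes name Trimmomatic, HISAT2 and DESeq2, so the aligner of these files is uncertain. The deposited table holds whole-number counts per gene, not normalized. Strand, annotation release and use of molecular identifiers are not given in the sources used here. The log2 values deposited by the authors equalled log2 of the count over a median-of-ratios size factor plus 1 (largest difference 5.15e-14) and served only an alternative test. Group, tissue and age were read from the sample labels, and a separate deposited table of sample attributes was not used.

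Of 31053 identifiers, 17367 had counts and 30934 matched GENCODE M21 (GRCm38), and the 119 unmatched held 3959 counts. Totals of 2679785 to 4097953 counts set the precision, and counting intervals cover counting error only. Coordinates are 1-based. DESeq2 1.42.0 (Wald test, genotype only, median-of-ratios) in R 4.3.3 was fitted to the whole table with Benjamini-Hochberg adjustment and a threshold of 0.05. Fold changes are unshrunken, Cd36KO against WT, and intervals are the estimate ± 1.96 SE. Exact two-sided permutation tests (SciPy 1.17.1) used log2(normalized count + 1), with a smallest p of 0.0286. CPM of marker lists are counts divided by the total count of the library, with no further scaling.

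Alternatives were edgeR 4.0.16 (quasi-likelihood), TMM factors, no independent filtering, a filter on low genes (10 counts in at least 4 libraries), limma 3.58.1 on the log2 values (mean over 1), the replicate block, and leaving out each library. Leave-one-out with edgeR was added after seeing the data. Counts were simulated for this comparison with 200 genes changed 3-fold, each with a mean of at least 20 normalized counts. Of these 200, DESeq2 recovered 90% with 16287 genes fitted (7.69% of calls false), edgeR 88% with 9771 (3.30%) and limma 56% with 12962 (6.67%). No library was simulated to stand apart as WT 1 did, so these shares need not hold for the data. The genes and lists were chosen with earlier results of these data known. Named with values were the 9 genes, Cd36, other complement genes with a mean of at least 20 normalized counts or a call, genes of the remaining lists that were called or, at most, the 4 most abundant of a list, and the 5 genes most like Cfd, C3 and the C1q sum. Genes named outside this rule (Fcna, Masp2, Itgax, Mrc1, Tyrobp, Stat2, Irf9 and Gbp7) were chosen after their values were seen, and Xist and Gm20547 serve checks.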

Additional observations from a re-analysis of the deposited data

Results flagged for a closer look

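Of 66 groups of 4 libraries examined, 2 held a library far from the others in its group by Dixon's test at the 95% level, where chance alone gives about 3.3, and both were WT 1. Its summed white depot markers were at 8.284 on the log2(CPM + 1) scale against 10.61 to 10.82 in the other WT libraries. Its summed mesothelial markers, of which only Krt19 had counts, were at 4.333 against 0 to 0.661. No value of the 9 complement genes met the criterion in either group. The part of these values in the complement results was not tested.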

How the results depend on the processing

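The call on the 9 genes depended on which libraries entered. The 9 had 0 calls over 8 libraries by every model, filter and scaling tried, and 1 without WT 1 (Cfb, by DESeq2 and by edgeR), against 0 when any other single library was left out. Limiting the fit to the 6 numbered libraries, which drops WT 1 and the unnumbered Cd36KO library, gave 2 calls (Cfb at -2.10, DESeq2 adjusted p = 6.06e-04, and C4b at -1.57, adjusted p = 0.0152), and 1 with the replicate block (Cfb at -2.12, adjusted p = 0.0117, where 1.55% of all genes were called lower). Replicate numbers are shared by labels only: deviations of same-numbered libraries correlated at -0.13, 0.42 and 0.14, so the numbers were not taken to pair the libraries. Over the table, 284 genes were called by DESeq2, 14 by edgeR, 171 with independent filtering off and 3 by limma. Leaving out 1 library moved this count between 69 (without WT 2) and 507 (without WT 4) in DESeq2, and between 0 (without WT 2, WT 3 or any of Cd36KO 2, 3 and 4) and 202 (without WT 1) in edgeR, with 10 without WT 4 and 1 without the unnumbered Cd36KO library. Other complement genes had 0 to 1 calls when a library was left out, and 1 (Itgam) without WT 1 in DESeq2. Relatives of C1q had 0 to 1, with 1 (Adipoq) without WT 1 and 1 in the 6 libraries without the block. The inducible genes had 1 call (Hp) in the 6 libraries, with the block and without. The cause was not tested.

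For the 9 fold changes, 129 of 144 left-out fits kept sign and side, 13 changed sign and 2 gained the call, and of 63 other fits 54 kept both, 6 changed sign and 3 gained it. All sign changes were in genes whose estimate over the 8 libraries was 0.22 or less in size. With the block and without it, the 6 libraries gave -0.10 and -0.14 for C1qa, -0.15 and -0.17 for C1qb, -0.21 and -0.21 for C3, and 0.34 and 0.35 for C1qbp. When a library was left out, C1qb ranged from -0.050 to 0.26 in DESeq2, with edgeR at -0.031 without WT 1, -0.0095 without WT 4 and -0.057 without the unnumbered library. C3 ranged from -0.059 to 0.43, with edgeR at -0.064 without the unnumbered library. Cfd ranged from -0.43 to 0.11, with edgeR at 0.10 without WT 3 and 0.058 without Cd36KO 4. Serping1 ranged from -0.17 to 0.025, with edgeR at 0.0037 without WT 4. Clu ranged from -0.0063 to 0.32 (edgeR -0.027 without WT 2), Cd59b from -0.035 to 0.61 (edgeR -0.016 without WT 1 and -0.044 without WT 2) and C1qbp from -0.19 to 0.17 (edgeR 0.16 without WT 1 and 0.16 without the unnumbered library). Cfb, C2, C4b and C1qc were lower in Cd36KO in all fits run, but their size moved. Over the left-out fits of DESeq2 and edgeR, Cfb ranged from -1.82 to -1.05, C2 from -1.29 to -0.56 and C4b from -1.28 to -0.48. In the same fits C1qc ranged from -0.41 to -0.17 and C1qa from 0.0081 to 0.38. Depth limits Cfb, C2 and C4b most, with 6 to 88 reads a library.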
